A study of Mus musculus with 4 samples.

Results

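Condensin is the ring-shaped ATPase complex that folds chromatin loops into compact mitotic chromosomes. Its SMC pair, Smc2 and Smc4, is shared by 2 forms that differ in the other 3 subunits: condensin I carries Ncapd2, Ncaph and Ncapg, and condensin II carries Ncapd3, Ncaph2 and Ncapg2. Condensin II is in the nucleus throughout the cell cycle, while condensin I reaches the chromosomes once the nuclear envelope has broken down. Topoisomerase II alpha (Top2a) passes one DNA duplex through another and removes the tangles between sister chromatids. Ki-67 (Mki67) coats the surface of mitotic chromosomes and keeps them apart, and its antigen is the usual stain for cycling cells, in the epidermis mainly those of the basal layer. The 8 condensin subunit genes, Top2a and Mki67 were taken by symbol from the FPKM table. All 10 were found, each in 1 of 24487 rows, and all 10 were among the 11350 genes tested.

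The cells were primary mouse keratinocytes isolated from newborn animals and grown at passage 0 in low-calcium E-media on mitotically inactivated J2-3T3 fibroblasts, mouse feeder cells that were removed ahead of RNA extraction, per the labels. The cultures were harvested before confluence, with no further treatment. There were 2 libraries labelled control and 2 labelled Ovol2-deficient. The allele, any promoter or cell type in which Ovol2 was altered, the strain and the number of animals per library are not given in the sources used here. Titles of the deficient libraries carry the code SSKO, which the labels do not spell out. No label says that libraries came from separate animals, so the p-values measure the spread between these libraries, which may be technical. Expression was given as FPKM, a level per length of transcript and relative to all mapped fragments, so levels of different genes can be set side by side.

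Ovol2 itself had FPKM values of 2.68 and 2.14 in the controls, against 1.45 and 0.941 in the deficient libraries, lower in both but not past the test (limma adjusted p = 0.129). Basal keratinocyte markers were abundant in all libraries, with Krt5 at a mean FPKM of 2861 in controls and 2376 in deficient libraries. Depth was inferred from the smallest steps among the mean normalized values in the authors' deposited table, which gave about 12400000 to 14800000 counted reads a library if normalized totals were equal. By the values of that table the members were counted at 388 (Ncapg) to 3309 (Mki67) reads per library on average. Counting error alone is then 1.74% to 5.08% of a value. Such an error covers counting only, not the preparation of libraries.

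Promoter sequences are shown because 2 short motifs are common near genes expressed in G2 and mitosis. These are the CCAAT box, bound by NF-Y, and the cell cycle genes homology region, bound by MuvB-based complexes, searched here as TTTGAA. Both strands were searched, so a match on the other strand reads ATTGG or TTCAAA. The palindrome TTCGAA was searched as well, and none of these overlapped another in the windows shown. RefSeq windows (GRCm38.p6) of 250 bases before to 50 after a start were matched for 9 of 10 members. No window was matched for Smc4. The windows of the 2 called genes, of Ncaph (condensin I) and of Ncaph2 (condensin II) are printed where they lie before the gene and outside annotated exons, on the strand of the gene, with matches in capitals.
Top2a, chr11:99024200-99024439, minus strand: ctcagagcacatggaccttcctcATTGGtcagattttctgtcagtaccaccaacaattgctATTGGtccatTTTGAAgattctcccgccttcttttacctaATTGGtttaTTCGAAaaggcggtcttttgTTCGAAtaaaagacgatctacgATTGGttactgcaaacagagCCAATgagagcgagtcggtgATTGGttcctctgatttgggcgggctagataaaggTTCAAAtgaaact
Mki67, chr7:135716451-135716629, minus strand: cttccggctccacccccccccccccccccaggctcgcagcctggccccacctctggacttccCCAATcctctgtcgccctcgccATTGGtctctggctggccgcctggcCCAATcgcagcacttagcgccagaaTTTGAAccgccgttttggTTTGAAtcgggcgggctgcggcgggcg
Ncaph, chr2:127133955-127134204, minus strand: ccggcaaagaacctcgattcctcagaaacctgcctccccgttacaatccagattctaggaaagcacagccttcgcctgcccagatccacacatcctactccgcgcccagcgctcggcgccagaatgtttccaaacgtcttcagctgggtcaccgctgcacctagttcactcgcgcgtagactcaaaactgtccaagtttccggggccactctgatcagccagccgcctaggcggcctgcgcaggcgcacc
Ncaph2, chr15:89355660-89355718, plus strand: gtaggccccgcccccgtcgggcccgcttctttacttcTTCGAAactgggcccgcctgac

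The Top2a window held 6 CCAAT matches, and 5 or more were found in 0.271% of 32851 RefSeq windows of the same length. It also held 2 TTTGAA and 2 TTCGAA matches. In the Mki67 window there were 3 CCAAT matches, a count reached by 3.37% of all windows, and 2 TTTGAA matches that start 116 and 98 bases before the start site. At least 1 match was present in 37.4% of all windows for CCAAT, 17.9% for TTTGAA and 1.56% for TTCGAA. Both CCAAT and TTTGAA were found for 5 of 9 matched members (Smc2, Ncapd2, Ncapg, Top2a and Mki67) and in 6.95% of all windows. For Ncapg2 there was a TTTGAA match without a CCAAT match. In the windows of Ncaph and Ncaph2, and at the first of 2 listed starts of Ncapd3, neither was found, and Ncaph2 held 1 TTCGAA. At the second start of Ncapd3 there was 1 TTTGAA match. A match is only a run of letters, and its absence says only that these letters are not in the window. The letters do not depend on these libraries, and any part of the motifs in the values was not tested. The TTTGAA matches of 4 members are compared below in 30 bases each, read along the motif, with the motif in capitals.
Ncapd2, chr6:125191692-125191721, minus strand: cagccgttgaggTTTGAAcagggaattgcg
Ncapg, chr5:45669883-45669912, plus strand: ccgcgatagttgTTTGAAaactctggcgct
Ncapg2, chr12:116405406-116405435, plus strand: tacgcgggtgtgTTTGAAtctggtccgagc
Top2a (nearer match), chr11:99024195-99024224, plus strand: tccctagtttcaTTTGAAcctttatctagc

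In the Ovol2-deficient libraries Top2a and Mki67 fell, to 59.8% and 54.9% of the control mean FPKM. The SMC pair, the condensin I subunits and Ncapg2 stood at 61.4% to 70.2% of control, with adjusted p-values just above the threshold of 0.05. Ncapd3 and Ncaph2 of condensin II stood at 81.1% and 90.1%. For all 10 genes both deficient libraries lay below both controls, an arrangement seen in 24.0% of all tested genes. Limma called 2 of the 10 lower and 0 higher. Of all 11350 tested genes, 0.511% were called lower and 0.837% higher (58 and 95 genes). This split depends on scaling, with 10 lower and 26 higher after upper quartile scaling and 0 lower and 5 higher after quantile normalization. Unadjusted p-values were under 0.05 for 8 of the 10, and for 1978 of all 11350 tested genes. That share is the background for such counts in the lists below. The median log2 fold change of the 10 was -0.56, beside -0.0014 over all tested genes. In bulk RNA, fewer cells of a type and less RNA per cell cannot be told apart. Per the authors' deposited table, 8 of the 10 were called lower and 0 higher, against 2.10% and 2.33% of its 11582 rows with an adjusted p. That table comes from the same 4 libraries and is not independent of these values.

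**Figure D1:**
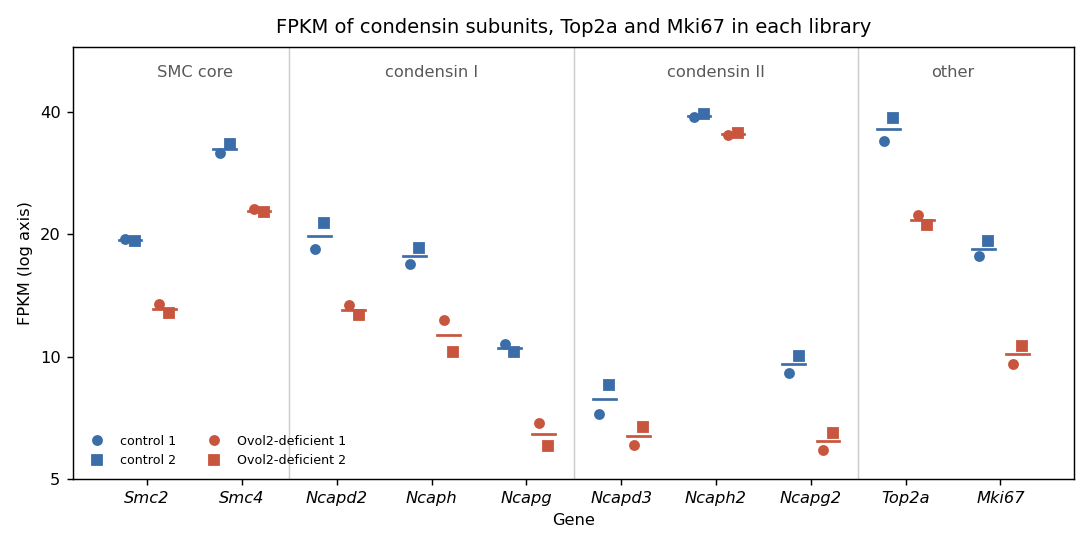
FPKM (log axis) of the 10 genes in each of the 4 libraries, with short lines at the mean of each group of 2. Each deficient point lies below both control points of its gene, and the groups are closest for Ncaph2 (38.9 and 39.6 against 35.2 and 35.6) and Ncapd3.

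Top2a, the topoisomerase of dividing cells (ENSMUSG00000020914.17, mm10 chromosome 11, 98992943 to 99024189, on the minus strand), had FPKM values of 34.0 and 38.8 in the controls, against 22.4 and 21.1 in the deficient libraries. The gap between the groups was wider than the gap within either. Group means were 36.4 ± 3.38 and 21.7 ± 0.946 (SD, n = 2 per group). The log2 fold change on the log2(FPKM + 1) scale was -0.71 (SE 0.10, limma adjusted p = 0.0392). Mki67 (ENSMUSG00000031004.8, chromosome 7, 135689784 to 135716361, minus strand) stood at 17.7 and 19.2 in the controls, against 9.61 and 10.6 in the deficient libraries. It had the lowest log2 fold change of the 10 genes, -0.81 (SE 0.10, limma adjusted p = 0.0353). Only 0.264% of tested genes had a log2 fold change at or below that of Mki67, and 0.511% at or below that of Top2a. In the authors' deposited table Mki67 had the smallest p-value of all rows (log2 fold change -0.83, adjusted p = 9.1e-10) and Top2a ranked 14 (-0.70, adjusted p = 3.44e-07).

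With 1 deficient library left out, the other is assumed to vary like the controls, whose 2 libraries alone then give the spread, and neither gene was called. Without deficient library 1 the limma adjusted p was 0.182 for each gene, and without library 2 it was 0.169 for Top2a and 0.111 for Mki67. They also missed the threshold with quantile normalization (0.0554 each), upper quartile scaling (0.0511 each), no variance trend (0.0659 and 0.0653) and no filter on low genes (0.224 each), while the log2 fold changes stayed at -0.62 to -0.81 for Top2a and -0.74 to -0.87 for Mki67 over all 14 alternatives.

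The shared ATPases came next in the order of roles. Smc4 (ENSMUSG00000034349.14, chromosome 3, 69004738 to 69034623, on the plus strand) had FPKM values of 31.7 and 33.4 in the controls, against 23.1 and 22.7 in the deficient libraries. Its partner Smc2 (ENSMUSG00000028312.19, chromosome 4, 52439243 to 52488260, on the plus strand) stood at 19.5 and 19.3 and at 13.4 and 12.8. In both genes the libraries of a group lay within a narrow range and the groups were well apart. The log2 fold changes were -0.49 (95% interval -0.70 to -0.28, limma adjusted p = 0.0546) for Smc4 and -0.53 (-0.75 to -0.31, adjusted p = 0.0506) for Smc2, so neither passed. Although the proteins pair one to one, the FPKM of Smc2 was lower than that of Smc4 in every library. The ratio of Smc2 to Smc4 was 0.616 and 0.576 in the controls, against 0.583 and 0.563 in the deficient libraries, with overlapping groups.

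The condensin I subunits lay close to one another in their differences. Ncaph, the kleisin that closes the ring (ENSMUSG00000034906.15, chromosome 2, 127103809 to 127133954, on the minus strand), had FPKM values of 16.9 and 18.6 in the controls, against 12.3 and 10.2 in the deficient libraries. The HEAT-repeat subunit Ncapd2 (ENSMUSG00000038252.13, chromosome 6, 125168007 to 125191701, minus strand) stood at 18.4 and 21.3 and at 13.4 and 12.7. The other HEAT-repeat subunit, Ncapg (ENSMUSG00000015880.13, chromosome 5, 45669919 to 45700546, on the plus strand), stood at 10.7 and 10.2 and at 6.85 and 6.01. All 3 had groups that did not overlap, and the deficient libraries of Ncaph were the farthest apart. Log2 fold changes were -0.61 for Ncaph (SE 0.12, limma adjusted p = 0.059), -0.57 for Ncapd2 (SE 0.11, adjusted p = 0.058) and -0.63 for Ncapg (SE 0.11, adjusted p = 0.0506). In limma 0 of the 3 passed, with 3 of 3 at an unadjusted p under 0.05. In the authors' deposited table all 3 were called lower, against 2.10% of its rows with an adjusted p. Their log2 fold changes there were -0.59, -0.55 and -0.59. Exons of Ncapg share 944 bases with Lcorl on the opposite strand. Strand was not stated for the libraries, so reads there cannot be assigned, and Lcorl stood at a FPKM of 5.86 and 4.14 in the controls, with 5.02 and 4.98 in the deficient libraries.

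The 3 condensin II subunits had unlike values, a difference that was not tested. Ncapg2 (ENSMUSG00000042029.7, chromosome 12, 116405402 to 116463731, on the plus strand) had FPKM values of 9.13 and 10.01 in the controls, against 5.90 and 6.47 in the deficient libraries. Its log2 fold change of -0.56 (SE 0.11, limma adjusted p = 0.0618) was slightly nearer 0 than those of the condensin I subunits (-0.57 to -0.63). This order depends on the constant added to FPKM. With 0.1 in place of 1, Ncapg2 stood at -0.62 and Ncapd2 of condensin I at -0.60. Ncapd3 (ENSMUSG00000035024.16, chromosome 9, 27030175 to 27095315, on the plus strand) stood at 7.22 and 8.505 and at 6.04 and 6.71. The lower control of Ncapd3 was within 1 FPKM of the higher deficient library, and the log2 fold change was -0.26 (95% interval -0.55 to 0.03, limma adjusted p = 0.338). Ncaph2, the condensin II kleisin (ENSMUSG00000008690.15, chromosome 15, 89355719 to 89372826, on the plus strand), stood at 38.9 and 39.6 and at 35.2 and 35.6. For Ncaph2 the log2 fold change was -0.15 (95% interval -0.35 to 0.06, limma adjusted p = 0.449). Both intervals include 0. That of Ncapd3 also reaches the values of Smc2 and Smc4, while that of Ncaph2 ends short of them, and equality with control was not shown for either gene. The authors' deposited table called neither (Ncapd3 -0.28, adjusted p = 0.39; Ncaph2 -0.15, adjusted p = 0.648) and called Ncapg2 lower (-0.57, adjusted p = 0.00223).

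The level of Ncaph2 is uncertain, because 829 of its 4198 exonic bases (19.8%) are shared with Sco2 and 535 (12.7%) with Tymp, both on the opposite strand. Sco2, a copper chaperone of cytochrome oxidase, stood at a mean FPKM of 38.1 in controls and 36.2 in deficient libraries. Tymp, thymidine phosphorylase, stood at 0.798 and 1.25. These neighbours were looked up after the values were seen. Their part in the level and log2 fold change of Ncaph2, and in ratios to it, was not tested.

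**Figure D2:**
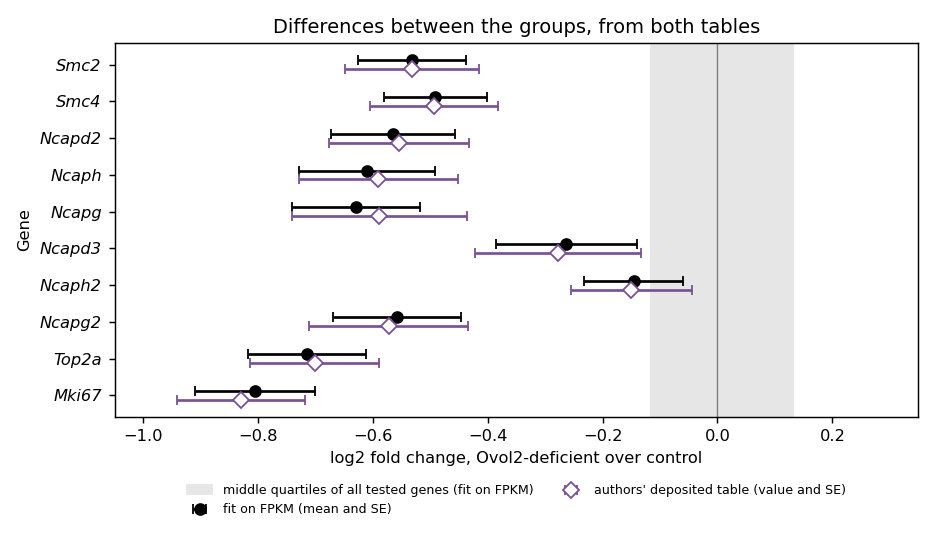
Log2 fold change of Ovol2-deficient over control with its SE for each gene, from the fit on log2(FPKM + 1) (black) and from the authors' deposited table (open diamonds), with the middle quartiles of all tested genes as a grey band. The values of both sources lie close together, from -0.81 and -0.83 for Mki67 to -0.15 and -0.15 for Ncaph2.

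The order of levels was similar in all libraries. Ncaph2 had the highest FPKM in each, a level left uncertain by the exons it shares with Sco2 and Tymp. Top2a and Smc4 took the next 2 places, with Top2a above Smc4 in both controls and below it in both deficient libraries. Smc2 and Ncapd2 changed places between the controls (19.5 and 18.4 in control 1, 19.3 and 21.3 in control 2), so these neighbours did not differ beyond their spread. Mki67 and Ncaph followed, and the lowest 3 places were held by Ncapg, Ncapg2 and Ncapd3. Ncapd3 was last in the controls, but Ncapg2 was last in deficient library 1 and Ncapg in deficient library 2.

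Ratios of counterpart subunits within a library do not depend on the scaling of that library. The kleisin ratio of Ncaph to Ncaph2 was 0.433 and 0.468 in the controls, against 0.351 and 0.288 in the deficient libraries. The ratio of Ncapd2 to Ncapd3 was 2.55 and 2.50 in the controls, against 2.22 and 1.89 in the deficient libraries. Both ratios of condensin I to condensin II were lower in the deficient libraries, without overlap. The kleisin ratio carries the uncertainty of Ncaph2, whose exons overlap those of Sco2 and Tymp. That of Ncapg to Ncapg2 overlapped, at 1.17 and 1.02 against 1.16 and 0.929. With 2 libraries against 2 the smallest two-sided p of an exact permutation test is 0.333, and the ratios were not tested in another way.

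**Figure D3:**
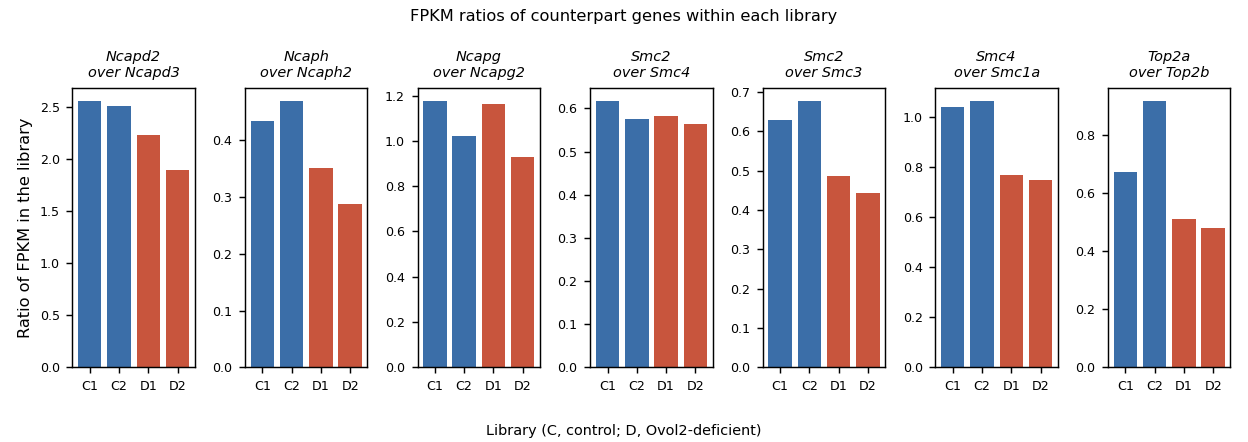
Ratio of FPKM between counterpart genes in each library, with bars from 0 (C, control; D, Ovol2-deficient). The deficient bars are below both control bars for Ncapd2 over Ncapd3, Ncaph over Ncaph2, Smc2 over Smc3, Smc4 over Smc1a and Top2a over Top2b, and overlap them for Ncapg over Ncapg2 and Smc2 over Smc4.

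Other enzymes of chromosome structure served as neighbours of the members. Top2b, the other topoisomerase II, is not confined to dividing cells. It stood at a mean FPKM of 46.3 ± 5.77 in controls and 43.8 ± 0.00120 (SD, n = 2 per group) in deficient libraries. Its log2 fold change was -0.07 (limma adjusted p = 0.793). The ratio of Top2a to Top2b was 0.674 and 0.917 in the controls, against 0.511 and 0.481 in the deficient libraries. Of 5 other topoisomerase genes 0 were called by limma and 0 had an unadjusted p under 0.05, and the authors' deposited table called 0. Top1, which cuts a single strand, stood at 37.6 and 37.2, Top3b at 24.5 and 26.2 and Top3a at 4.71 and 4.05.

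Cohesin, the SMC complex that holds sister chromatids together, had 18 genes tested with its loaders and regulators. Limma called 1 lower (0.511% of all tested genes) and 0 higher, with a median log2 fold change of -0.10 and 5 of 18 at an unadjusted p under 0.05. In 9 of 18 both deficient libraries lay below both controls, against 24.0% of all tested genes. The authors' deposited table called 3 of them lower, against 2.10% of its rows with an adjusted p. The called gene was Sgol1 (shugoshin), which protects cohesin at centromeres in mitosis, at 8.51 and 9.16 in the controls, against 4.95 and 4.75 in the deficient libraries (log2 fold change -0.75, limma adjusted p = 0.0392). The ring genes Smc1a and Smc3, named after the values were seen, had log2 fold changes of -0.04 and -0.07 (limma adjusted p = 0.885 and 0.773). Also named after their values were seen, 4 genes that act on cohesin in replication or mitosis (Esco2, Cdca5, Espl1 and Sgol2) stood at -0.58 to -0.64, and limma called none of them. Pttg1 of the same list went the other way, at 0.15 (limma adjusted p = 0.594). In the whole list 13 of 18 genes had a log2 fold change below 0. The ratio of Smc2 to Smc3 was 0.630 and 0.676 in the controls, against 0.486 and 0.443 in the deficient libraries. That of Smc4 to Smc1a was 1.04 and 1.06 against 0.768 and 0.748. In the Smc5/6 complex, which acts in DNA repair, limma called 0 of 6 genes, with 3 at an unadjusted p under 0.05 and a median of -0.16, and the authors' deposited table called 0. Its most abundant members were Nsmce2 (log2 fold change 0.11), Nsmce4a (-0.26) and Nsmce1 (-0.05).

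The kinases and chromosome passengers that act on condensin in mitosis also stood lower. Limma called 5 of 14 lower and 0 higher, the median log2 fold change was -0.65, and in all 14 both deficient libraries lay below both controls. Over all tested genes limma called 0.511% lower, and 24.0% had both deficient libraries below both controls. The authors' deposited table called 13 of these 14 lower, against 2.10% of its rows with an adjusted p. Cdk1, the mitotic kinase that phosphorylates condensin, had FPKM values of 33.1 and 35.6 in the controls, against 22.1 and 20.8 in the deficient libraries (log2 fold change -0.65, limma adjusted p = 0.0392). Its partner cyclins Ccnb1 (-0.65, adjusted p = 0.0419) and Ccna2 (-0.75, adjusted p = 0.0353) fell too in limma. So did the kinases Plk1 (-0.79) and Bub1 (-0.72), each with a limma adjusted p of 0.0419. Mcph1, an inhibitor of condensin II, had the value nearest 0 in this list, -0.19. Among 12 genes of the replicative helicase and Pcna, limma called 1 lower, Mcm6 (36.8 and 42.2 in the controls, 26.4 and 25.05 in the deficient libraries, adjusted p = 0.0482), with a list median of -0.44. In this list 10 of 12 had an unadjusted p under 0.05, 11 had both deficient libraries below both controls, and the authors' deposited table called 4 lower.

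Of 9 tested partners of Ki-67 and proteins of the chromosome periphery, limma called 0. In this list 2 had an unadjusted p under 0.05, and the median log2 fold change was -0.01. The authors' deposited table called 1 lower, against 2.10% of its rows with an adjusted p. The abundant nucleolar genes Npm1 and Ncl stood at log2 fold changes of -0.01 and -0.04, and Ppp1ca, a phosphatase catalytic subunit, at -0.08. Cdca2, which brings a phosphatase of this family to chromatin late in mitosis and was named after its value was seen, stood at 5.37 and 7.06 in the controls, against 3.89 and 3.39 in the deficient libraries (-0.63, limma adjusted p = 0.0926). Of 7 linker histone genes 2 passed the filter on low values and limma called 0, with 1 at an unadjusted p under 0.05. These were H1f0 (-0.31) and Hist1h1c (0.09).

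**Figure D4:**
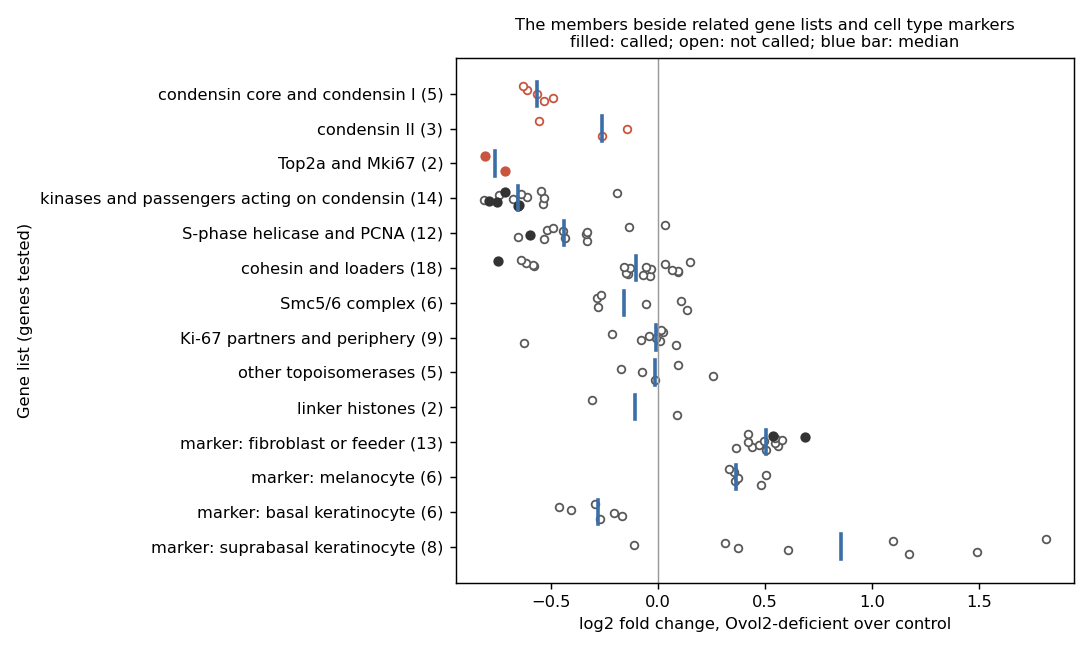
Log2 fold change of each tested gene by list (filled, called by limma; open, not called; blue bar, list median), with the 10 genes in red at the top. Kinases and passengers acting on condensin (median -0.65) lie at the level of the 10 genes, other topoisomerases (-0.01) and Ki-67 partners (-0.01) near 0, and fibroblast or feeder markers (0.50) above it.

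Markers of other cells differed between the same libraries. The summed FPKM of 16 fibroblast or feeder markers was 272.6 and 273.8 in the controls, against 369.7 and 401.7 in the deficient libraries. Of 13 tested, limma called 2 higher (Loxl1 and Pcolce), against 0.837% of all tested genes, and 13 were at an unadjusted p under 0.05. All 13 had both deficient libraries above both controls, as did 24.1% of all tested genes. The authors' deposited table called 9 of these markers higher, against 2.33% of its rows with an adjusted p. Lum was listed at 0 in control 2, and Lum, Dcn and Postn were under the filter. The 7 melanocyte markers summed to 62.2 and 67.7 in the controls, against 90.8 and 84.2 in the deficient libraries, and limma called 0 of 6 tested, with 4 at an unadjusted p under 0.05. The immune marker Cd207 and the endothelial marker Cdh5 were listed at 0 in all libraries. The 5 immune markers summed to 10.5 to 12.4 and the 3 endothelial markers to 3.24 to 4.27.

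The 6 basal keratinocyte markers summed to 5913 and 5780 in the controls, against 5325 and 4605 in the deficient libraries, with a median log2 fold change of -0.28, and limma called 0, with 3 at an unadjusted p under 0.05. The 8 suprabasal markers found summed to 1230 and 747.3 in the controls, against 1313 and 954.6 in the deficient libraries. Their median log2 fold change in limma was 0.85, with 0 called and 3 at an unadjusted p under 0.05. Only 3 of the 8 had both deficient libraries above both controls, and the controls of Krt10 stood at 23.2 and 3.85. The authors' deposited table called 0 of the 8, with smaller log2 fold changes, from -0.08 (Krtdap) to 0.29 (Ivl). Set against Krt5 in the same library, a ratio chosen after the values were seen, Top2a was 1.15% and 1.40% in the controls, against 0.902% and 0.928% in the deficient libraries. Mki67 was 0.596% and 0.696% of Krt5 in the controls, against 0.387% and 0.469% in the deficient libraries. Both stayed below the controls on this scale, by 0.47 and 0.60 in log2 units for Top2a and Mki67. These gaps depend on the marker chosen. Krt5 stood at a log2 fold change of -0.27, and the 6 basal markers ran from -0.46 (Itga6) to -0.17 (Krt14). The authors' deposited table called 2 of the 6 lower, against 2.10% of its rows with an adjusted p. Ratios to the other basal markers were not computed. The part of the fibroblast, melanocyte and suprabasal markers in the values of the 10 genes was not tested.

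The genes whose profile over the 4 libraries lay nearest to a member were found by Euclidean distance between log2(FPKM + 1) values centred on each gene's mean. For Top2a they were Foxm1, a transcription factor of G2 and mitotic genes (distance 0.04), Lrr1 (0.05) and Csrp2 (0.06). For Mki67 they were Gmnn, the inhibitor of replication licensing (0.07), Nuf2, a kinetochore subunit (0.07), and Ptch1, the Hedgehog receptor (0.12). For Ncaph they were Traip (0.03), the cohesin acetyltransferase Esco2 (0.04) and the kinesin Kif2c (0.04). The nearest to Ncaph2 were Pabpn1, Wbscr16 and Slc25a11, at distances of 0.0043, 0.0071 and 0.011. With 4 libraries such a distance is a description only.

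**Figure D5:**
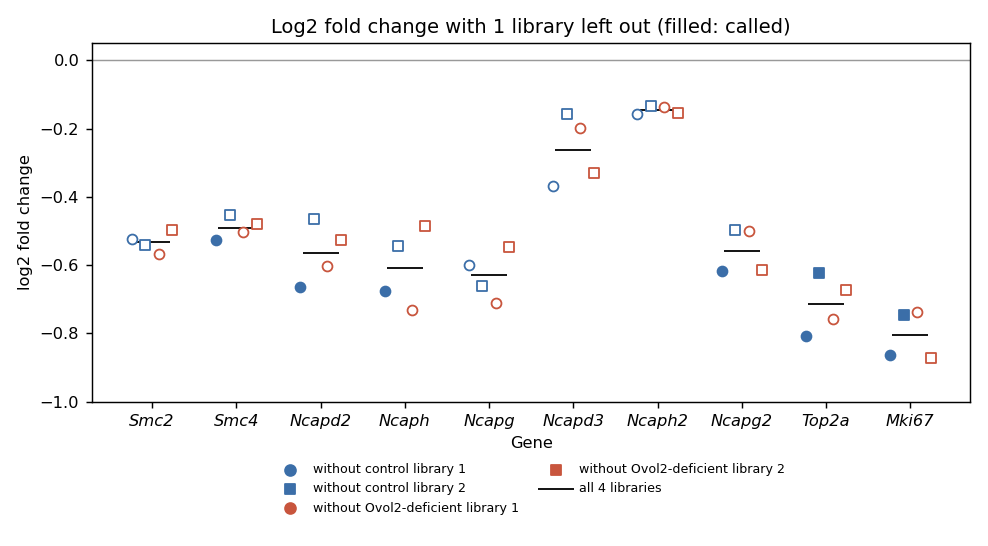
Log2 fold change of each gene with 1 library left out (filled, called by limma), and with all 4 libraries (black line). All values are below 0, from -0.87 (Mki67) to -0.13 (Ncaph2), a sign already fixed by groups that do not overlap. Calls appear only without a control library.

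Leaving out 1 library left a group of 1, so that the 2 libraries of the other group alone gave the spread and the lone library is assumed to vary like them. The counts of calls from these fits therefore rest on different spreads. Without control 1, limma called 6 of the 10 lower (background 1.48%), without control 2 it called 2 (0.695%), and 0 without deficient library 1 (0.00%) or library 2 (0.0354%), with 8 at an unadjusted p under 0.05 in each of the last 2. Over these fits the log2 fold change ran from -0.57 to -0.50 for Smc2, -0.53 to -0.45 for Smc4 and -0.67 to -0.47 for Ncapd2. It ran from -0.73 to -0.49 for Ncaph, -0.71 to -0.55 for Ncapg and -0.62 to -0.50 for Ncapg2. For Ncapd3 the range was wide relative to its size, -0.37 to -0.16, and for Ncaph2 it was -0.16 to -0.13.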

How the data were processed

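The 4 libraries (2 control, 2 Ovol2-deficient) were amplified as full-length cDNA and tagmented, per the labels' protocols. The submitters' processing notes name TopHat, HTSeq and mm10, a mouse build. The annotation, and the tool that gave the FPKM, are not given in the sources used here. Per library, the authors deposited FPKM, and they deposited a table that holds, per the file headers, a mean normalized signal, log2 fold changes with SE, a score for the test, raw p-values and adjusted ones.

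One repeated header line and 27 rows with date-like symbols were removed, and rows sharing a symbol were summed (23970 symbols). The deficient columns are named mutant 1 and 2, so they were assigned by group. At most 13 of 11350 values were identical between 2 libraries. Limma 3.58.1 (R 4.3.3) was fitted to log2(FPKM + 1) of the genes whose mean FPKM reached 1 (group only, variance trend, Benjamini-Hochberg adjustment over all tested genes, threshold 0.05), checked on simulated data. Fold changes on this scale understate those of low genes. Gene positions are from GENCODE M21, on the build of mm10, and promoters from RefSeq.

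The members and lists were chosen with earlier results of these data known. Named were all 10 members, Ovol2, the called genes of each related list (or its 3 most abundant), Top1, Top2b and Top3a, and the 3 nearest profiles of 4 members. The alternatives were the replicate block, pseudocount, filter, scaling, variance trend, leaving out each library and the authors' table.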

Additional observations from a re-analysis of the deposited data

How the results depend on the processing

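All 10 genes kept a log2 fold change below 0 under all 14 alternatives, and of 140 values 103 kept their side of the threshold, 25 passed it newly and 12 lost it. With both deficient libraries below both controls in every gene, leaving out a library or changing the pseudocount could not change this sign. The replicate block, the filters and the variance trend do not alter the log2 fold change. Only the scalings and the authors' deposited table could have changed its sign. The number of the 10 genes called lower, 2 in limma with all libraries, was 4 with a pseudocount of 0.1 and 4 with 0.5, 7 with a filter at a mean FPKM of 5 and 8 in the authors' deposited table. In limma it was 0 without a filter, with quantile normalization, with upper quartile scaling and without the variance trend, with 8 at an unadjusted p under 0.05 in each. With 1 library left out it ranged from 0 to 6. Over all genes limma called 153, and 171 and 161 with pseudocounts of 0.1 and 0.5, 68 with a filter at a mean FPKM of 0.5, 267 at 5, 3 without a filter, 5 with quantile normalization, 36 with upper quartile scaling and 6 without the variance trend, against 513 in the authors' deposited table and 10 to 466 with 1 library left out. The larger set of genes tested without a filter also enters the adjustment. Other causes were not tested. With the replicate number as a block, limma called 518 of 11350 genes (335 higher) and 8 of the 10 members lower. Deviations of libraries with the same number correlated at r = 0.220 across 11350 genes, but with 2 pairs and no label on what a number marks, the pairing was not established. With 2 libraries a group, differences of the size seen for Ncapd3 and Ncaph2 were not resolved.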
